A study of Mus musculus with 10 samples.

Results

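The Ms4a genes of mononuclear phagocytes are a set of 6 mouse genes, Ms4a4a, Ms4a4c, Ms4a6b, Ms4a6c, Ms4a6d and Ms4a7, chosen by name from a table of 24411 genes counted in liver RNA. A row under its symbol was found for 5 of the 6, and Ms4a4a was not analysed here. The livers came from male C57BL/6 mice (strain background C57Bl6/J in the labels) that were 8 weeks old at the start and received a high fat diet together with intraperitoneal antisense oligonucleotides (ASO), short modified nucleic acids through which a cell breaks down the RNA they match. The 5 control ASO samples (replicates 1 to 5, also called the controls) came from mice given a non-targeting ASO and the 5 Mboat7 ASO samples (replicates 6 to 10) from mice given an ASO against Mboat7, an acyltransferase that attaches arachidonic acid to lysophosphatidylinositol, at 12.5 mg/kg for 20 weeks in both groups. Tissue is labelled normal liver in the first group and severe fatty liver in the second, so the knockdown and the fatty liver cannot be told apart. Which of the study's Mboat7 ASOs the sequenced mice received is not stated in the labels.

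MS4A proteins cross the membrane several times and sit in complexes with other receptors, whose signals they adjust. Their genes lie side by side in a single cluster and most are expressed in white blood cells. The founding members are Ms4a1, which encodes the B cell antigen CD20, and Ms4a2, the beta chain of the high-affinity IgE receptor of mast cells. The genes described here are known from monocytes and macrophages. Mouse Ms4a7 is a marker of macrophages that descend from monocytes, mouse Ms4a4c and Ms4a6c are prominent in circulating monocytes, and mouse Ms4a6d encodes a partner of the macrophage receptor VSIG4.

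All members lie on chromosome 19 (GRCm38, GENCODE annotation M21). Within the cluster of 678.6 kb that runs from 10962293 to 11640851, they occupy 283.8 kb in the order Ms4a7 (11321039 to 11336146, minus strand), Ms4a4a (11375523 to 11392790, plus strand), Ms4a4c (11404770 to 11427246, plus), Ms4a6c (11469366 to 11482192, plus), Ms4a6b (11516512 to 11531256, plus) and Ms4a6d (11586604 to 11604849, minus). Their main coding transcripts have 7 exons, or 8 in Ms4a6b. The coding sequences fall into subgroups. Ms4a4c was 91.7% identical to Ms4a4b and 85.7% to Ms4a4d, which are neighbours in the cluster and not members. Ms4a6b was 79.8% identical to Ms4a6d, and Ms4a6c was 66.8% identical to Ms4a6d. Ms4a7 was at most 51.1% identical to another measured member.

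The likeness matters for 50 bp reads, because a read that fits more than one gene may be lost or assigned to either. Of the 50-base windows of each transcript, 0 of 1527 in Ms4a7 also occurred in a transcript of a gene elsewhere, 2.92% in Ms4a6d, 5.89% in Ms4a6b, 8.48% in Ms4a4c and 11.9% in Ms4a6c. In Ms4a6c, 55.4% of the windows also lie in BE692007, a non-coding gene that overlaps it by 12027 bases on the opposite strand. BE692007 has no row in the count table, and the strand setting of the counting is not stated in the sources used here. If strand was not used, reads of the 2 genes cannot be told apart at Ms4a6c. Ms4a4c and Ms4a6b overlap opposite-strand annotations by 235 and 442 bases, and Ms4a6d and Ms4a7 overlap none.

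Promoter windows from RefSeq (GRCm38.p6, 250 bases before to 50 after a start site) were found for Ms4a7 (2 start sites), Ms4a4a, Ms4a4c, Ms4a6c and Ms4a6b, and not for Ms4a6d. The following stretches, all on the plus strand and read 5′ to 3′, are shown because they carry what member promoters share with a neighbour. In Ms4a6c the capitals mark a run of 48 bases that recurs without a mismatch in the Ms4a6b window, where it begins at position -118 relative to the start site, and in 2 of 32851 promoters in all. In the other pair the capitals mark GAGGAA, the core letters of the motif of PU.1, a transcription factor that myeloid cells need.
Ms4a6c, chr19:11469259-11469366, positions -109 to -2: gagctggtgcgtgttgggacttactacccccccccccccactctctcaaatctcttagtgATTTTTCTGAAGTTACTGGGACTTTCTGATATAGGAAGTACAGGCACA
Ms4a4c, chr19:11407561-11407655, positions -100 to -6: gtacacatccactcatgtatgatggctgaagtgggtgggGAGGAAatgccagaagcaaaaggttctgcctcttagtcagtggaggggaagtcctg
Ms4a4b, chr19:11443458-11443552, positions -100 to -6: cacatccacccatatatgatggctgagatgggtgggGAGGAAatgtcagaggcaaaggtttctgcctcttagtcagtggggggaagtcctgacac

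The whole windows of Ms4a4c and its neighbour Ms4a4b were 72.1% identical, those of Ms4a6c and Ms4a6b 51.2%. GAGGAA, searched on both strands, lay in 2 of the 5 windows of the measured members (Ms4a4c and 1 start site of Ms4a7) and in 28.3% of all promoter windows. The AP-1 site TGANTCA lay in 1 member window (the other start site of Ms4a7) and in 7.81% of all. Neither the interferon-stimulated response element core (GAAA, any 2 bases, GAAA; 3.44% of all) nor the C/EBP site (TTGC, any 2 bases, AA; 10.8% of all) was matched in a member window. A match or its lack describes these letters only.

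Members are first described by their read counts, then by counts scaled to library size after upper-quartile normalization (CPM), with the mean ± SD of 5 livers. Fold changes are Mboat7 ASO relative to control ASO as log2 ± standard error (SE). A gene rose or fell where edgeR's quasi-likelihood test gave an adjusted p (Benjamini-Hochberg over 12609 genes tested) under 0.05. The SE was derived from that test, as the absolute log2 fold change divided by the square root of the F statistic. All 5 measured members were tested and all 5 rose, each by at least 2-fold. Ms4a4c reached at most 0.835 CPM in the controls, so it passed the filter (1 CPM in at least 1 library) through Mboat7 ASO livers alone. Without a filter its log2 fold change was 2.51 ± 0.53 (edgeR adjusted p = 0.00550). Among all genes tested 21.2% rose and 6.43% rose by at least 2-fold. The groups did not overlap for 3 of the 5 (Ms4a6c, Ms4a6d and Ms4a7), and 10.5% of all genes were higher in the Mboat7 ASO group without overlap. The median log2 fold change was 2.34 over the members and 0.01 over all genes. In bulk liver RNA, more cells of a type and more RNA per cell cannot be told apart.

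Ms4a6c was the most abundant member. It had 26, 63, 17, 78 and 28 counts in controls 1 to 5 and 467, 249, 304, 99 and 147 counts in Mboat7 ASO livers 6 to 10. Even the lowest Mboat7 ASO liver, replicate 9, was above the highest control, replicate 4. The level went from 1.64 ± 0.994 CPM to 8.69 ± 4.51 CPM, a log2 fold change of 2.40 ± 0.46 or 5.26-fold (edgeR adjusted p = 0.00400).

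Ms4a6d, the VSIG4 partner, followed closely. Its counts were 11, 52, 17, 60 and 18 in the controls and 328, 182, 230, 77 and 94 in Mboat7 ASO livers. Control replicates 2 and 4 were again the high ones of their group, replicates 9 and 10 the low ones of theirs, and the groups did not overlap. The level was 1.23 ± 0.856 CPM against 6.27 ± 3.26 CPM, a log2 fold change of 2.34 ± 0.50 or 5.08-fold (edgeR adjusted p = 0.00581).

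For Ms4a6b, the third gene of the Ms4a6 subgroup, the controls had 4, 33, 5, 27 and 11 counts and Mboat7 ASO livers 131, 68, 64, 23 and 47 counts. Here the groups overlapped, since Mboat7 replicate 9 lay below control replicates 2 and 4, and 4 of the 5 Mboat7 ASO livers exceeded every control in CPM. The mean went from 0.621 ± 0.513 to 2.27 ± 1.23 CPM, with a log2 fold change of 1.86 ± 0.56 or 3.63-fold (edgeR adjusted p = 0.0233). This was the least firm member. Its adjusted p was 0.0544 without control replicate 3, 0.0516 without control replicate 5 and 0.0604 without Mboat7 replicate 6, with log2 fold changes of 1.65, 1.75 and 1.52.

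Ms4a4c, the monocyte gene of the Ms4a4 subgroup, had 4, 21, 8, 12 and 6 counts in the controls and 129, 70, 86, 18 and 34 in Mboat7 ASO livers. Replicate 9 fell below control replicate 2 and the other 4 Mboat7 ASO livers exceeded every control. It had the highest log2 fold change of the members, 2.52 ± 0.55 or 5.73-fold (edgeR adjusted p = 0.00615), from 0.402 ± 0.267 to 2.31 ± 1.40 CPM. The SE is wider than the distance to any other member except Ms4a6b. With control replicate 2 and Mboat7 replicate 9 both left out, the log2 fold change was 3.20 for Ms4a4c and 2.52 for Ms4a6b, over 1.5 times the fold with all livers for each.

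Ms4a7, the marker of monocyte-derived macrophages, had 14, 32, 10, 22 and 17 counts in the controls and 182, 83, 85, 36 and 84 in Mboat7 ASO livers. The groups did not overlap but came close, with Mboat7 replicate 9 at 1.32 CPM and control replicate 2 at 1.27 CPM. The means were 0.741 ± 0.330 and 3.20 ± 1.59 CPM, a log2 fold change of 2.10 ± 0.39 or 4.30-fold (edgeR adjusted p = 0.00349). Its rise had the smallest SE and the lowest adjusted p of the members.

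**Figure D1:**
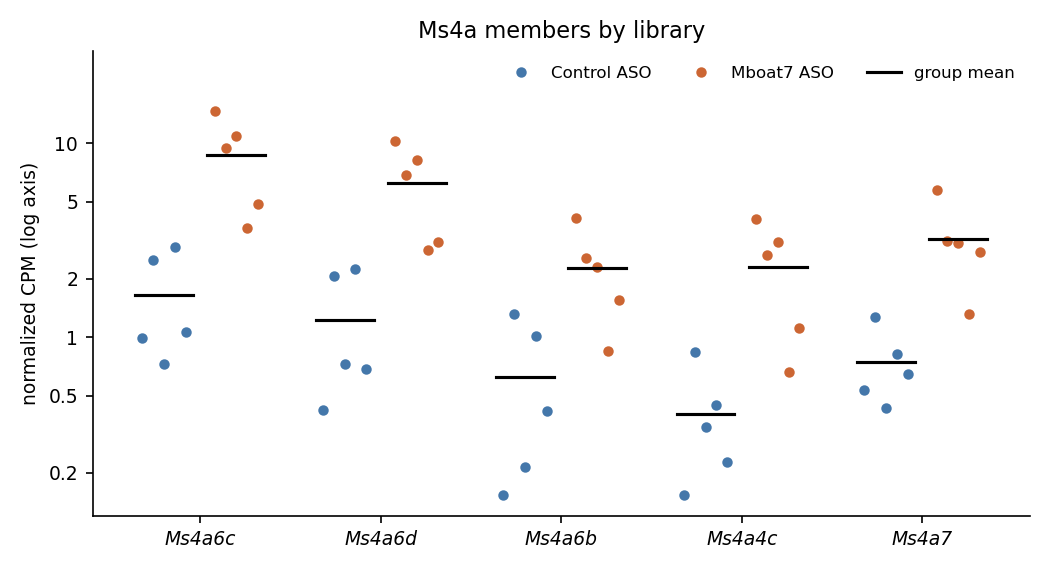
Normalized CPM (log axis) of the 5 measured Ms4a members in each liver. Blue points are control ASO replicates 1 to 5 from left to right, orange points Mboat7 ASO replicates 6 to 10, and black lines group means. Ms4a6c, Ms4a6d and Ms4a7 show no overlap between groups, while 1 Mboat7 ASO liver lies within the control range for Ms4a6b and for Ms4a4c.

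The same livers were high and low for every member. Summed over the 5 members, the controls had 2.26, 7.99, 2.45, 7.44 and 3.04 CPM and Mboat7 ASO livers 38.8, 24.6, 27.6, 9.29 and 13.4 CPM. The sums of control replicates 2 and 4 were thus close to that of Mboat7 replicate 9, and replicate 6 stood highest. To set 2 profiles side by side, log2 CPM was centred on each gene's mean and the root mean square difference was taken over the 10 livers. The closest pair was Ms4a6c and Ms4a6d at 0.27, the farthest Ms4a6d and Ms4a7 at 0.54, with the other pairs of members between them. Ms4a7 differed in shape from the rest by lying higher in replicate 10 and lower in replicates 7 and 8. These are descriptions, since all profiles share the same libraries.

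**Figure D2:**
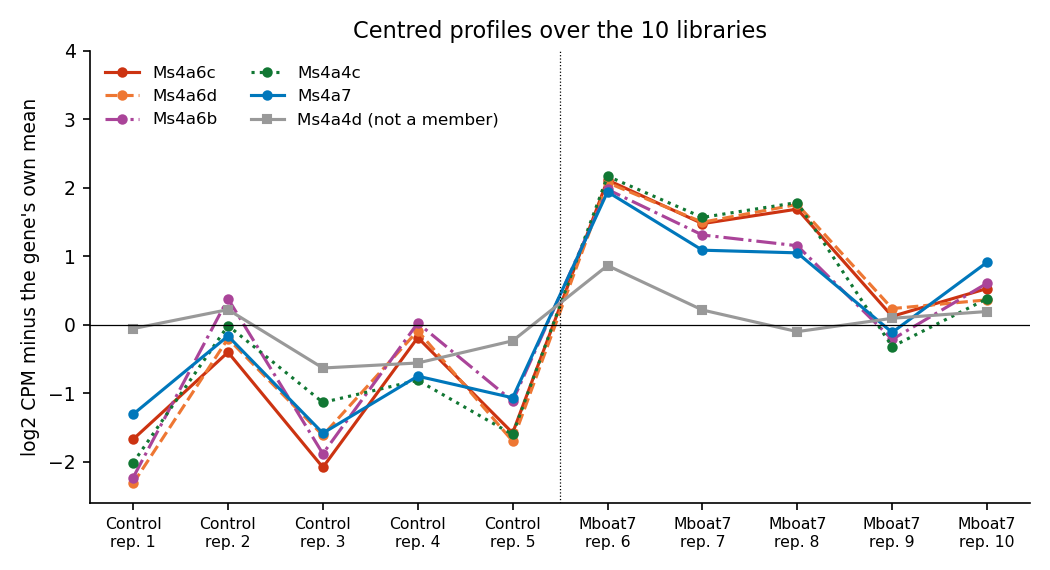
Log2 CPM minus each gene's own mean over the 10 livers, for the 5 measured members (coloured lines) and Ms4a4d, a neighbour in the cluster (grey). The members' lines run together, with high points in replicates 6 to 8, a dip in replicate 9 and local peaks in control replicates 2 and 4, and the grey line is flatter.

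The sum of the members rose, while the share of each in that sum overlapped between groups. Of the counts of the 5 members, Ms4a6c took 35.9 ± 5.83% in the controls and 38.2 ± 1.30% in Mboat7 ASO livers. Ms4a6d took 25.4 ± 4.91% and 27.6 ± 2.93%, and Ms4a7 17.9 ± 4.90% and 14.7 ± 3.65%. The share of Ms4a4c was 8.96 ± 3.30% and 9.57 ± 1.74%, and that of Ms4a6b 6.78 to 16.4% and 8.32 to 11.6%. For all 5 members the ranges of the groups overlapped.

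Levels between genes were compared per kb of transcript. In the controls Ms4a6c and Ms4a6d had close means, 0.892 ± 0.540 and 0.867 ± 0.603 CPM per kb. Ms4a7 followed with 0.470 ± 0.210 CPM per kb. Ms4a4c and Ms4a6b were lowest, again with close means, 0.233 ± 0.155 and 0.232 ± 0.191 CPM per kb. The genes were measured in the same livers, so the spread among livers does not measure the difference between genes. The order of means was the same in Mboat7 ASO livers, at 4.72 ± 2.45, 4.42 ± 2.30, 2.03 ± 1.01, 1.34 ± 0.815 and 0.848 ± 0.459 CPM per kb. Within single livers Ms4a6c exceeded Ms4a7 in 10 of 10 and Ms4a6d exceeded Ms4a7 in 9 of 10. Ms4a6c exceeded Ms4a6d in 7 of 10, all but control replicates 2 and 3 and Mboat7 replicate 9. Ms4a4c exceeded Ms4a6b in 7 of 10, all but control replicates 2, 4 and 5, and so in every Mboat7 ASO liver. Scaling instead by the windows found in no transcript of a gene elsewhere left that order of means in place. It gave 5.51, 4.72, 2.09, 1.51 and 0.918 CPM per 1000 windows in Mboat7 ASO livers. Windows of Ms4a6c that also lie in the overlapping BE692007 (55.4%) were kept, so the place of Ms4a6c is not free of that overlap.

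The rest of the family gave a different picture. Of 15 further Ms4a genes and relatives listed, 13 had a row and 5 were tested. Of these, 0 of 5 passed by edgeR, DESeq2 or limma-voom (by edgeR 2 of 5 had an unadjusted p under 0.05). By edgeR 21.2% of all genes tested rose and 17.3% fell. Ms4a4b, the near copy of Ms4a4c that mouse T cells express, had 7, 22, 8, 11 and 11 counts in the controls and 58, 19, 24, 12 and 22 in Mboat7 ASO livers. Its groups overlapped broadly, with a log2 difference of 0.98 ± 0.43 (edgeR adjusted p = 0.0885). Ms4a4d had 88, 103, 52, 63 and 78 counts against 205, 108, 91, 102 and 122, with a log2 difference of 0.52 ± 0.22 (edgeR adjusted p = 0.0784). It was the most abundant Ms4a gene of the controls per kb (1.99 CPM per kb) but not of Mboat7 ASO livers (2.85 CPM per kb). Both passed once control replicate 2 was left out, when the log2 fold change was 1.34 for Ms4a4b (edgeR adjusted p = 0.0268) and 0.66 for Ms4a4d (edgeR adjusted p = 0.0312). The difference between a member's change and that of Ms4a4b or Ms4a4d was not tested.

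Ms4a8a, known from alternatively activated mouse macrophages, was at 0.490 ± 0.231 CPM in the controls and 0.775 ± 0.325 CPM under Mboat7 ASO, with a log2 difference of 0.67 ± 0.41 (edgeR adjusted p = 0.211). Tmem176a and Tmem176b, relatives of the family on another chromosome, were far more abundant (266 ± 27.1 and 352 ± 35.0 CPM in the controls). Their log2 differences were 0.10 ± 0.12 and 0.11 ± 0.13, and both adjusted p were above 0.5. Near-zero or slightly negative values were obtained for this pair without Mboat7 replicate 6.

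**Figure D3:**
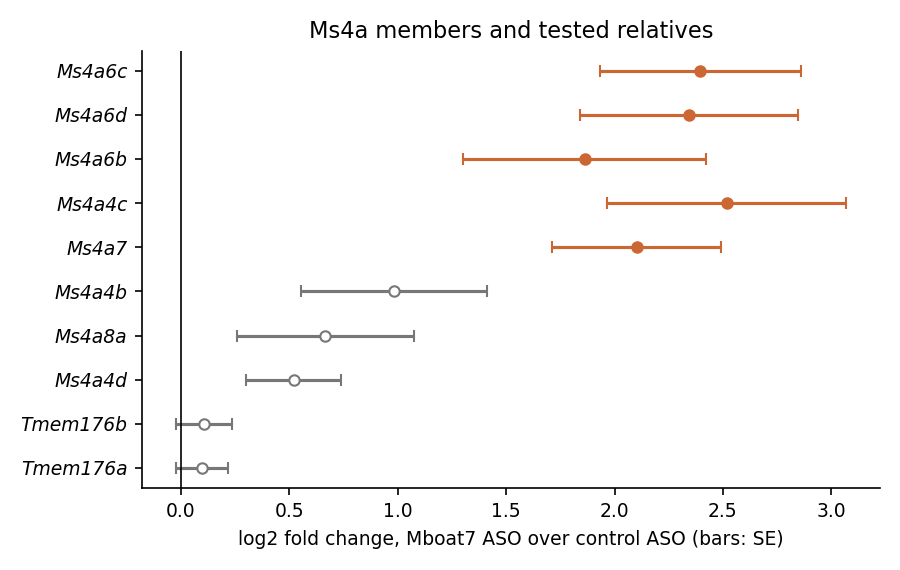
Log2 fold change of Mboat7 ASO over control ASO, with SE as bars, for the 5 measured members (orange) and the 5 tested relatives (grey). Filled points passed an adjusted p of 0.05 by edgeR and open points did not. All members lie at or above 1.86 and all relatives below 1.

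Several family genes were too low to test. The B cell gene Ms4a1 had 1, 5, 8, 9 and 4 counts in the controls and 20, 11, 17, 12 and 7 in Mboat7 ASO livers, so the groups overlapped. Ms4a3, a gene of granulocyte and monocyte progenitors, had 0 counts in all 5 controls, which allows up to 0.112 to 0.129 CPM (3 counts per library, counting error only). In Mboat7 ASO livers it had 8, 10, 3, 0 and 0 counts. The mast cell gene Ms4a2 had 1 count in the controls together and 6 in all Mboat7 ASO livers. Ms4a18 had 1 count in all, and Ms4a5, Ms4a10, Ms4a13 and Ms4a15 had 0 in every library.

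Most of the tested genes around the cluster did not pass. Among genes within 500 kb of the cluster that are not Ms4a genes, 48 had a row and 19 were tested. Of these, 3 rose, 4 fell and 12 did not pass, where 21.2% of all genes rose and 17.3% fell. The median log2 fold change of the 19 was 0.04. Slc15a3, a lysosomal histidine and peptide transporter, rose by 1.35 ± 0.33, the syntaxin gene Stx3 by 0.73 ± 0.22 and the DNA damage-binding gene Ddb1 by 0.22 ± 0.05, with edgeR adjusted p of at most 0.0226. Vwce fell by 0.45 and AW112010 fell by 0.45, while Tmem216 fell by 0.34 and the mitochondrial assembly factor gene Sdhaf2 fell by 0.18. Ms4a4b and Ms4a4d lie between members that rose.

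**Figure D4:**
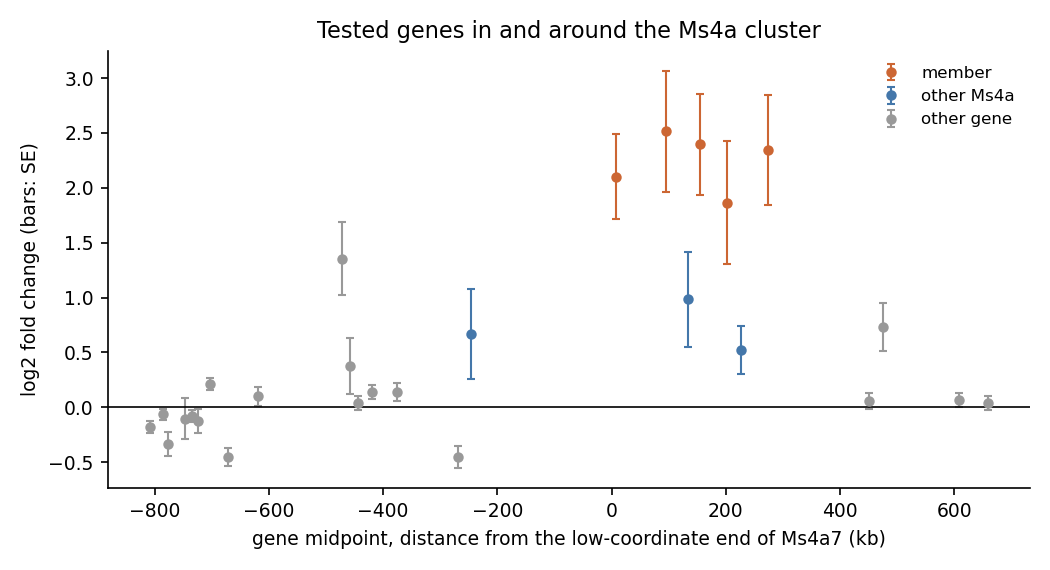
Log2 fold change (SE as bars) of the tested genes in and around the Ms4a cluster against the distance of each gene's midpoint from the low-coordinate end of Ms4a7, in kb. The 5 members (orange) stand near or above 2, the other Ms4a genes (blue) at or below 1, and the other genes (grey) from -0.45 for Vwce and AW112010 to 0.73 for Stx3 and 1.35 for Slc15a3.

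MS4A proteins act with other receptors, and 13 such genes were listed, of which 11 were tested. 9 rose and 2 did not pass, with a median log2 fold change of 1.36. Over all genes tested 21.2% rose, and the median was 0.01. Clec7a encodes dectin-1, the fungal sugar receptor that human MS4A4A binds. It rose from 3.98 ± 1.80 to 10.2 ± 4.70 CPM (1.36 ± 0.35, edgeR adjusted p = 0.0115). Trem2, the lipid receptor whose soluble form is tied to the human MS4A locus, had levels without overlap, 1.14 to 2.94 CPM against 3.08 to 6.88 CPM (1.45 ± 0.32, edgeR adjusted p = 0.00624). Its signalling adaptor Tyrobp rose by 1.75 ± 0.35 (edgeR adjusted p = 0.00453). Fcer1g, the shared gamma chain of Fc receptors, rose most within this list, from 3.75 to 10.9 CPM in the controls to 11.0 to 50.4 CPM in Mboat7 ASO livers (2.24 ± 0.44, edgeR adjusted p = 0.00432).

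Vsig4, the Kupffer cell complement receptor that pairs with Ms4a6d in mouse macrophages, rose by 0.90 ± 0.23 (edgeR adjusted p = 0.0111), from 9.41 ± 1.85 to 17.6 ± 5.85 CPM. In that setting the pair restrains Nlrp3 and Il1b through Jak2, Stat3 and Tnfaip3. The inflammasome sensor Nlrp3 rose by 1.39 ± 0.42 (edgeR adjusted p = 0.0227) and the cytokine Il1b by 2.08 ± 0.67 (edgeR adjusted p = 0.0307). Neither call was steady. The adjusted p of Nlrp3 was above 0.05 without control replicate 1 (0.0532), control replicate 3 (0.0536) or Mboat7 replicate 6 (0.0593). That of Il1b was above 0.05 without control replicates 1, 4 or 5 or Mboat7 replicates 6, 7 or 8 (0.0559 to 0.0687) and was 0.165 by limma-voom. Jak2 rose by 0.26 ± 0.07 (edgeR adjusted p = 0.0160). Stat3 (0.04 ± 0.09, 0.757) and Tnfaip3 (0.75 ± 0.28, 0.0530) did not pass, and Tnfaip3 passed in 8 of 19 alternative settings. Kit, the mast cell receptor that works with human MS4A4A, rose by 0.74 ± 0.15 (edgeR adjusted p = 0.00497) with no overlap between groups. Fcer1a and Tnfrsf18 were below the filter, with 1 and 12 counts in all controls and 4 and 25 in all Mboat7 ASO livers.

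Genes whose profile lay closest to the members' mean profile over the 10 livers were looked for among the 11830 genes whose mean reached 1 CPM. Among the closest 8 were Myo1f (a myosin of leukocytes, root mean square difference 0.22 log2 units), Ctss (the antigen-processing protease cathepsin S), Igsf6, Sla (a Src-like adaptor), Cd48 (a leukocyte adhesion molecule), Cyth4 and Itgb2 (the beta-2 integrin chain, 0.25). Each of these 7 rose, by 1.92 to 2.56 on the log2 scale. The median difference over all genes ranked was 1.32. The pan-leukocyte gene Ptprc (CD45) came 16th at 0.28, the Kupffer cell genes Cd5l and Clec4f 126th and 650th, the macrophage genes Adgre1 and Csf1r 137th and 195th, and the monocyte receptor Ccr2 211th. Ms4a4d, inside the same gene cluster, came 1527th.

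Markers of several leukocyte types moved with the members. The targeted gene Mboat7 itself went from 36.2 to 43.7 CPM in the controls to no more than 4.66 CPM in Mboat7 ASO livers (-3.63 ± 0.17, edgeR adjusted p = 1.29e-06). For the marker lists that follow, the shares over all genes tested were 21.2% that rose and 17.3% that fell. All 10 pan-leukocyte markers rose, and their summed level was 138 to 204 CPM in the controls and 198 to 478 CPM in Mboat7 ASO livers. Of general macrophage markers 9 of 10 rose and 1 fell (summed, 243 to 539 and 456 to 950 CPM), and of Kupffer cell markers 4 of 7 rose (81.8 to 171 and 126 to 372 CPM). The lists for Ly6C-high and Ly6C-low monocytes had 6 of 8 and 4 of 6 rise, the first including Ccr2 (1.57 ± 0.45) and Ly6c2 (1.51 ± 0.55), and lipid-associated macrophage genes 5 of 6 (53.1 to 125 and 116 to 331 CPM). Ly6c2 was low, at a mean of 0.286 CPM in the controls, and passed narrowly (edgeR adjusted p = 0.0473). Fn1, at a mean of 1896 and 1897 CPM, made up most of the Ly6C-high sum, and the Ly6C-low sum was 12.2 to 24.2 and 21.6 to 73.6 CPM. All 6 tested neutrophil markers rose (0.456 to 1.94 and 2.90 to 45.0 CPM). Markers this low in the controls could pass the filter (1 CPM in at least 1 library) through Mboat7 ASO livers alone, which favours a rise. Of tested dendritic cell, B cell and mast cell markers 2 of 4, 2 of 3 and 2 of 2 rose, with 6 listed for each type. The other listed markers of these types were below the filter. Kit made up most of the mast cell sum. In the controls Kit was at 3.29 to 3.74 CPM and the sum at most 4.51 CPM. The 2 of 2 therefore does not describe the mast cell list as a whole. Of tested T cell markers 0 of 5 rose (1.95 to 6.84 and 3.05 to 8.48 CPM), and of NK cell markers 0 of 1. Of 7 hepatocyte markers 4 fell. No listed marker with a row was at 0 in every library. The part of any of these cells in the members' rise was not tested.

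Counts were therefore also set against leukocyte reference genes within each library. Per 100 counts of Ptprc, Ms4a6c had 27.0 ± 12.6 counts in the controls and 28.0 ± 2.41 in Mboat7 ASO livers, and Ms4a6d 19.6 ± 10.6 and 20.2 ± 1.70. Ms4a7 had 12.4 ± 1.82 and 11.0 ± 4.06, Ms4a6b 9.24 ± 5.31 and 7.42 ± 1.67, and Ms4a4c 6.30 ± 1.88 and 6.96 ± 0.896. The groups overlapped for all 5 members. By contrast, Ms4a4b had 6.36 to 9.24 counts per 100 Ptprc counts in the controls and 1.98 to 4.64 in Mboat7 ASO livers, and Ms4a4d 35.2 to 80.0 and 7.60 to 30.6, both lower without overlap. That separation was seen with Ptprc alone among the 4 references tried (Ptprc, Csf1r, Adgre1 and the summed pan-leukocyte markers). Per 100 Csf1r counts the groups overlapped for Ms4a4b (1.72 to 2.70 and 1.23 to 2.11) and for Ms4a4d (10.3 to 24.6 and 5.34 to 14.0). Control replicate 4 stood apart for the Ms4a6 genes, with 49.1 Ms4a6c counts per 100 Ptprc counts where the other controls had 17.2 to 23.6.

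The choice of reference mattered. Csf1r, the receptor that macrophages and monocytes depend on, had a log2 fold change of 1.35 ± 0.32, below that of each member, a difference that was not tested. Per 100 Csf1r counts, Ms4a7 had 3.49 ± 0.784 counts in the controls and 5.75 ± 0.901 in Mboat7 ASO livers, and Ms4a4c had 1.73 ± 0.476 and 3.90 ± 1.19, both without overlap. Ms4a6c (7.53 ± 3.28 and 15.3 ± 2.47), Ms4a6d (5.37 ± 2.70 and 11.1 ± 2.20) and Ms4a6b (2.61 ± 1.51 and 3.98 ± 0.623) were higher on average with overlapping groups. The overlap came from control replicate 4, joined by replicate 2 for Ms4a6b. The same members separated per 100 counts of Adgre1 (F4/80), where Ms4a7 went from 8.60 ± 1.71 to 12.6 ± 1.94 and Ms4a4c from 4.37 ± 1.42 to 8.39 ± 2.01. Per 100 counts of the summed pan-leukocyte markers all 5 members had a higher mean in Mboat7 ASO livers, but Ms4a7 alone separated (at most 0.624 and at least 0.668), while Ms4a4c overlapped (at most 0.409 and at least 0.334). Ptprc itself had 21.3 to 33.1 counts per 100 Csf1r counts in the controls and 38.4 to 70.4 under Mboat7 ASO, again without overlap. Per 100 counts of the pan-leukocyte sum, Ptprc had 2.97 to 5.71 in the controls and 6.18 to 11.0 under Mboat7 ASO, also without overlap. That sum was thus mostly made up of other markers on its list. Values relative to it do not stand for each leukocyte marker.

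**Figure D5:**
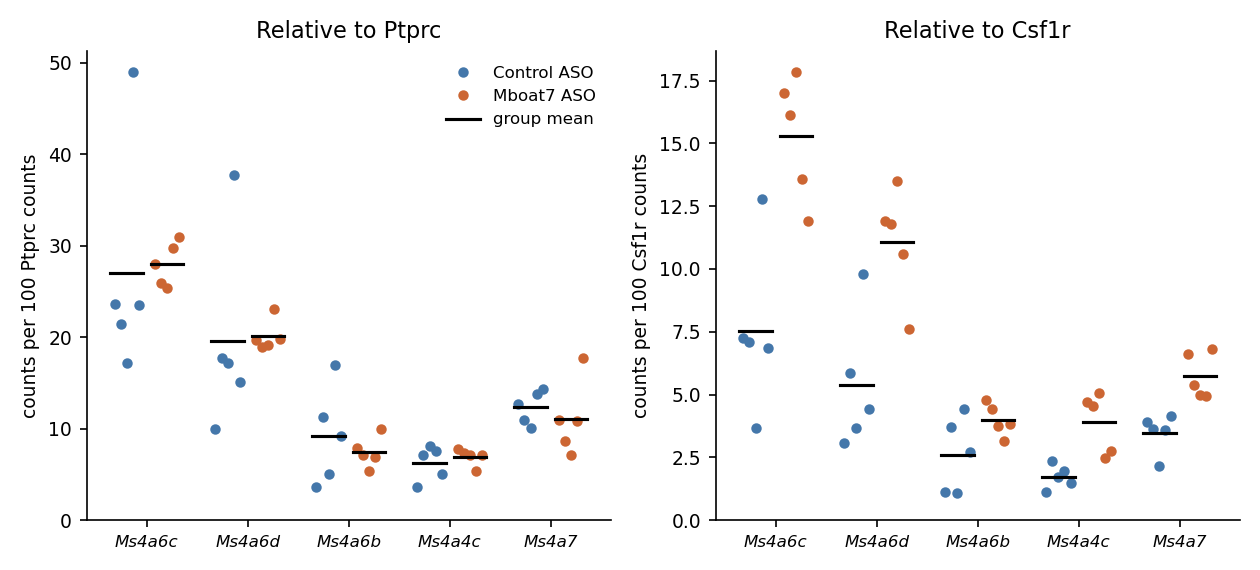
Counts of each member per 100 counts of Ptprc (left) and per 100 counts of Csf1r (right) in the same liver. Blue points are control ASO livers, orange points Mboat7 ASO livers and black lines group means. Relative to Ptprc the groups overlap for every member, and relative to Csf1r those of Ms4a4c and Ms4a7 do not.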

How the data were processed

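The authors read liver RNA of 10 samples as directional mRNA libraries with 50 bp single-end reads. Trim Galore 0.3.3 was used for trimming, and the reads were checked with FastQC 0.11.3 and aligned to mm10 with STAR (UCSC annotations), whose gene counting mode gave the table. The values they deposited are raw counts for each gene symbol. Another 10 columns of the table matched no label and stayed unused. Totals per library were 25153235 to 28791798 counts. Each library is called a liver here, but the labels do not state that each is a separate mouse, so p-values cover the spread among these samples, which may be technical.

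Genes with at least 1 CPM in at least 1 library (12609, with 48.3% removed) were normalized by upper quartile and tested with edgeR 4.0.16 (quasi-likelihood, R 4.3.3), without covariates. Named genes were the members, Mboat7, tested genes of the family and partner lists, locus genes that passed, the 8 closest profiles and the first 3 genes of each marker list. Fn1, Cd5l and the family and partner genes below the filter were named after their values were seen. Results for 2 genes that this rule or a marker list covers are not reported here. Members and lists were chosen with earlier results of these data known. Profiles used a prior count of 2. On simulated data for this comparison (12346 genes), 67.2%, 91.0% and 98.5% of genes changed by 1.5-, 2- and 4-fold were called. The changed genes all had a mean of at least 1 CPM, and the simulated spread followed the trend over all genes, not each gene's own spread. These shares therefore do not cover Ms4a4b and Ms4a8a (means of 0.688 and 0.632 CPM) or genes that vary more than the trend. They may not hold for the members, whose controls varied widely, as in Ms4a6c (1.64 ± 0.994 CPM). Alternatives changed normalization, filter, test (DESeq2 1.42.0, limma 3.58.1), thresholds and libraries.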

Additional observations from a re-analysis of the deposited data

Results flagged for a closer look

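Ms4a4b in control ASO replicate 2 was at 0.875 CPM, where the other 4 control ASO livers had 0.268 to 0.418 CPM, a gap of 0.752 of the group's range. Ms4a4d in Mboat7 ASO replicate 6 was at 6.44 CPM, where the other 4 Mboat7 ASO livers had 3.26 to 4.08 CPM, a gap of 0.743 of the range. Both gaps exceed Dixon's 95% critical value of 0.71 for 5 samples. They were found among 20 groups checked (10 genes), and chance alone gives about 1 in 20.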

How the results depend on the processing

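Ms4a6c, Ms4a6d and Ms4a7 passed in 19 of 19 alternatives, Ms4a4c in 18 of 18 (it was not tested at 1 CPM in at least 5 libraries) and Ms4a6b in 16 of 19. With 1 library left out in turn, the log2 fold change of Ms4a6b ran from 1.52 to 2.32, and the adjusted p missed 0.05 in 3 of these fits. The highest adjusted p over the alternatives was 0.0269 for Ms4a4c, 0.0138 for Ms4a6c, 0.0176 for Ms4a6d and 0.0107 for Ms4a7. Without a normalization factor the median of all genes was at 0.17 log2 units, 4672 genes rose and 769 fell, and all 5 members still passed. Genes higher by at least 2-fold numbered 1286 without control replicate 2 and Mboat7 replicate 9, 2667 with no fold threshold, 491 at an FDR of 0.01, and 811 in the report. Among values that did not pass, leaving out 1 library gave log2 values of -0.0236 to 0.0951 for Stat3, -9.09e-04 to 0.156 for Tmem176a and -0.00291 to 0.174 for Tmem176b, the negative ones without control replicate 5 (-0.00631) or Mboat7 replicate 7 for Stat3 and without Mboat7 replicate 6 for the others. Ms4a4d also passed without a normalization factor (0.69, edgeR adjusted p = 0.0333). The causes were not tested. No paired analysis was possible because the 2 groups share no replicate numbers. Control counts as low as 4 per library limit the precision of Ms4a4c and Ms4a6b.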
